A study of Mus musculus with 9 samples.

Results

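RNA levels of 10 genes of the NF-kB pathway were compared in mouse esophageal epithelial organoids: the transcription factor subunits Rela, Relb, Nfkb1 and Nfkb2, the inhibitors Nfkbia and Nfkbie, and the response genes Tnfaip3, Birc3, Icam1 and Tnfaip2. They were chosen by gene symbol from the union of the 3 deposited tables of differentially expressed genes, which holds 8742 genes. Of the 10 genes, 9 have counts in all 9 libraries, as do 6644 of the 8742. Organoids are small 3-dimensional cultures grown from epithelial cells. The 9 libraries fell into 3 groups of 3. Wild type organoids (WT) were the unedited controls. The label PN stands for knockout of Trp53 and Notch1, and the label PCN for knockout of Trp53, Cdkn2a and Notch1. All were untreated and were harvested on day 7. The sources used here do not give the kind of edit, the number of clones, the mouse strain or the age of the animals. Nor do the labels state that replicates were grown apart, so p-values measure the spread between these libraries, which may be technical.

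NF-kB is a family of dimeric transcription factors built from Rel proteins. In a resting cell the IkB proteins hold the dimers in the cytoplasm, and signals from cytokine or microbial receptors trigger their destruction through the IkB kinases. A second route processes the Nfkb2 precursor and releases dimers with Relb. Many of the genes that NF-kB switches on encode its own inhibitors, so their RNA is often read as a trace of pathway activity, and in squamous epithelium the pathway is known for its part in inflammation and barrier defence.

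Of the genes labelled as targeted, Trp53 stood at 2.61 ± 0.55 CPM in PN, 3.07 ± 0.77 in PCN and 120.1 ± 1.7 in WT (SD, n = 3). CPM here is a count scaled by the library size behind the deposited FPKM values, which ran from 16857744 to 18912526 for PN, from 17422590 to 20198041 for PCN and from 14695420 to 15093994 for WT. Notch1 stood at 244 ± 32 CPM in the WT libraries, 148 ± 6.8 in PN and 71.3 ± 5.3 in PCN. Cdkn2a RNA was higher in the libraries labelled as its knockout: 65.2 ± 4.3 CPM for PCN, against 22.1 ± 0.60 for PN and 8.996 ± 2.2 for WT. Since gene-level counts say nothing of an edit inside a gene, PCN is used below as a label. WT replicate 3 stood apart from the other WT libraries: its counts differed from those of WT replicate 1 by a mean chi-square of 30.3 per gene, against 10.6 between WT replicates 1 and 2 and 3.56 to 6.21 within PN and PCN. All 10 epithelial markers have values. The 8 with counts in every library summed to 9770 to 10076 CPM in the PN libraries, 11694 to 12090 in PCN and 33036 to 35160 in WT. In the order WT, PN, PCN, mean CPM of Krt13 (15876, 2099 and 2791) and Krt4 (11383, 2501 and 2206) carried most of that fall. The basal markers Krt15 (300.4, 731 and 1644) and Trp63 (486, 698 and 649) were higher in PN and PCN than in WT. Krt14 was higher in PCN (1959, 1965 and 2433). Krt5, without a WT value here, cannot be compared with WT. It stood at 6629 ± 229 CPM in PN and 6028 ± 319 in PCN. Sox2, without a PN value here, stood at 246 ± 65 CPM in WT and 183 ± 10 in PCN. That difference did not pass the edgeR test used below (adjusted p = 0.12). Of 8 leukocyte markers, Cd68 alone is in the tables (23.8 to 27.0 CPM in the PN libraries, 15.0 to 16.9 in PCN and 94.0 to 119.5 in WT), and of 8 endothelial markers Esam alone (4.65 to 5.99, 4.55 to 6.03 and 5.63 to 11.7 CPM). None of 8 fibroblast markers and none of 6 muscle and glial markers is in them. Genes outside the tables have no value here, so no marker can be said to be at 0. The part of these shifts in the results below was not tested. In bulk RNA, fewer cells of a type and less RNA per cell cannot be told apart.

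Promoter sequence is shown because NF-kB dimers bind a short DNA element, the kB site. RefSeq windows (GRCm38.p6) of 250 bases before the transcription start were matched for 8 of the 10 genes. The kB consensus GGGRNNYYCC (R is A or G, Y is C or T, N is any base) was searched on both strands. It was found in 5 of these 8 windows, and in 2379 of 32817 windows of all genes (7.25%). An AP-1 site, TGANTCA, was found in 2 of the 8 (Nfkbie and Tnfaip3) and in 6.75% of all windows. The windows of Nfkbia (chr12:55492648-55492897, minus strand), Nfkbie (chr17:45555450-45555699, plus strand) and Icam1 (chr9:21015690-21015939, plus strand) come first below. They are followed by stretches of at most 30 bases around the matches of Nfkb2 (chr19:46304689-46304717 and chr19:46304716-46304745, plus strand), Tnfaip3 (chr10:19015516-19015545 and chr10:19015403-19015432, minus strand) and Tnfaip2 (chr12:111442627-111442656, plus strand). Each is written 5′ to 3′ on the gene's strand, and capitals mark the match. The Nfkb2 stretch with 11 capitals holds 2 overlapping matches.
Nfkbia: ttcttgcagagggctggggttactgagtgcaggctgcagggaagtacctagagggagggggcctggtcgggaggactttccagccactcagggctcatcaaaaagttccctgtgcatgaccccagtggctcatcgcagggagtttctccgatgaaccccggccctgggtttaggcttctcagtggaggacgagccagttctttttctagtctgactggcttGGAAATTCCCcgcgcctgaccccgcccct
Nfkbie: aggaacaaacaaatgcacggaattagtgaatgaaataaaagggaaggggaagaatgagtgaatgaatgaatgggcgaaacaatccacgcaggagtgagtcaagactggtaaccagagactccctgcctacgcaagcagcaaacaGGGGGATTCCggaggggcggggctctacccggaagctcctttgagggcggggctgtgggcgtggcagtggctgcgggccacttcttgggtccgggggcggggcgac
Icam1: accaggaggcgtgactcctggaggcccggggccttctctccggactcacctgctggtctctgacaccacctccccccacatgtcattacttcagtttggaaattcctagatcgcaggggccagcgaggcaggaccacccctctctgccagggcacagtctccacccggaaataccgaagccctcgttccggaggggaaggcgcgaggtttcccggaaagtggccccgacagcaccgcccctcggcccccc
Nfkb2: gatcgtcacGGGAATTCCCCccctcgggg
Nfkb2: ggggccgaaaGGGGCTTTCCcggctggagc
Tnfaip3: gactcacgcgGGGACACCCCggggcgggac
Tnfaip3: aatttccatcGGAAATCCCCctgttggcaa
Tnfaip2: gactattttaGGAGGGCCCCtccagggtcg

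Distances are counted from the RefSeq start, which differs from the gene start in the deposited tables for 6 of the 8 genes. It lies 247 bases inside the listed gene for Tnfaip3 and 192 bases inside for Tnfaip2, so the stretches shown for these genes fall within the listed coordinates. The match began 29 bases before the start of Nfkbia and 106 bases before that of Nfkbie. In Tnfaip3 the matches began 125 and 12 bases before the start, in Nfkb2 39, 38 and 11 bases, and in Tnfaip2 24 bases. The windows of Rela, Birc3 and Icam1 held no match to the letters of the consensus. The Icam1 window holds a stretch that differs from them only at its first base. A window without a match can therefore still hold a kB site. A match is a description of sequence, and binding was not measured here. The genes were chosen as genes of the pathway, so their share of matches is not a test. Whether the matches bear on the RNA levels was not tested.

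In PCN, all 9 of the genes with WT counts were higher than in WT, and 9 of the 10 were higher than in PN. The largest rises were in the response genes: against PN, Tnfaip2 rose by 2.29 ± 0.05 on the log2 scale (SE), Birc3 by 1.65 ± 0.19, Icam1 by 1.39 ± 0.07 and Tnfaip3 by 1.19 ± 0.10. The subunits rose less, between 0.32 and 0.81. In PN, Nfkbia was higher than in WT and Tnfaip2 was lower, and the authors' tables list no other of the 10 genes for that pair. Because the genes came from tables of genes that the authors had already called, each had to be called in at least 1 comparison, and the tests below, refits of those counts with edgeR, are not independent evidence. Comparisons that share the WT, PN or PCN libraries are not independent of each other either.

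In PN against WT, 2 of the 10 genes were called, 1 higher and 1 lower, where 17.6% of the 17165 genes the authors adjusted over were called higher and 18.8% lower (36.4% in all). In PCN against WT, 9 of the 10 were called higher, where 17.5% of 17300 genes were called higher and 19% lower (36.5% in all). The remaining gene, Nfkbie, is not in the authors' table for that pair and has no WT counts here. In PCN against PN, 9 of 10 were called higher, where 12.3% of 14758 genes were called higher and 11.5% lower (23.8% in all). The median log2 fold change was 0.64 over the 9 genes with values in PCN against WT, where that of all fitted genes was -0.28. In PCN against PN it was 0.96 over the 10 genes, the uncalled Nfkbia included, where that of all fitted genes was 0.16. In CPM, PCN lay above WT without overlap for 9 of 9 genes, as did 43.9% of the 7396 tabled genes with counts in both groups, while 47.2% lay below. PCN lay above PN for 9 of 10 genes, against 31% of 7213 tabled genes above and 29.3% below. Between PN and WT, 2 genes were higher without overlap (Rela and Nfkbia), 2 lower (Icam1 and Tnfaip2), and 5 overlapped, where 43.2% of 7421 tabled genes lay above and 46.8% below. These shares are over genes called in at least 1 comparison, as the 10 genes are. WT replicate 3 entered both WT comparisons. Without it, 2 and 9 of the genes were still called, with log2 fold changes in PCN against WT of 0.42 for Rela, 0.61 for Relb, 0.32 for Nfkb1, 0.46 for Nfkb2, 0.60 for Nfkbia, 0.98 for Tnfaip3, 1.63 for Birc3, 1.12 for Icam1 and 0.63 for Tnfaip2. In PN against WT they were 0.58 for Nfkbia and -1.66 for Tnfaip2.

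**Figure D1:**
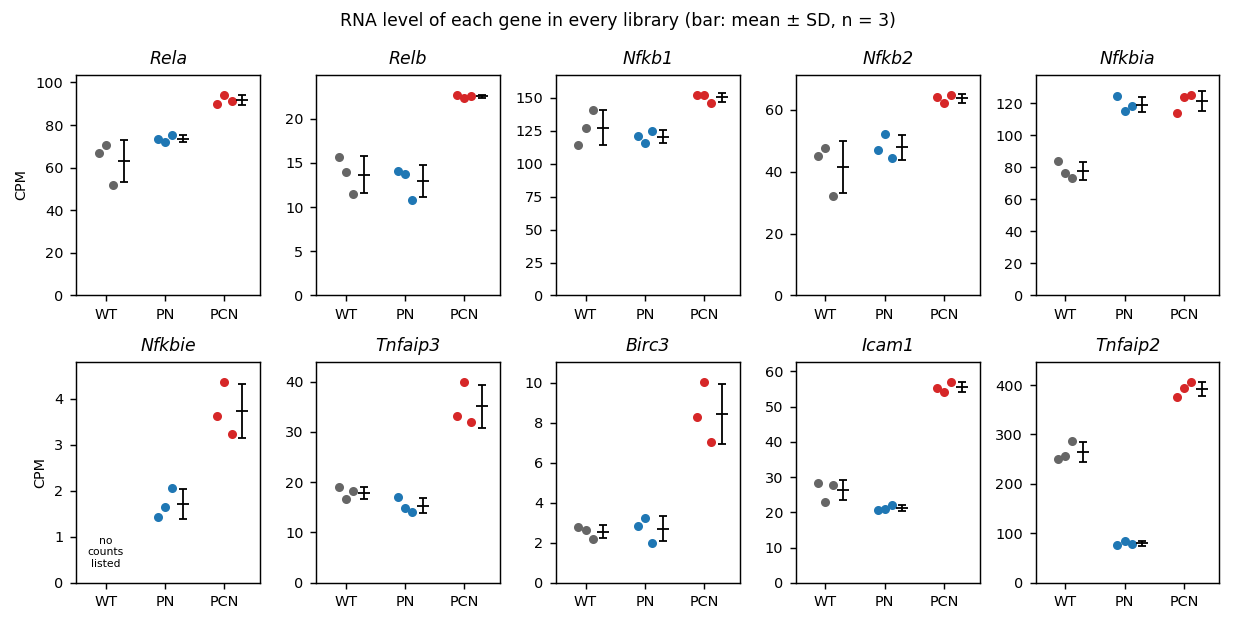
RNA level of each of the 10 genes in CPM (vertical axis, from 0) in every WT, PN and PCN library; each point is 1 library and the bar beside it is the mean ± SD (n = 3). In 9 of the 10 panels the PCN points lie above every PN point, as for 31% of the tabled genes, and in the Nfkbia panel PN and PCN overlap above WT.

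Rela encodes p65, the subunit of the main dimer that activates transcription (chr19:5637483-5648130, plus strand, GRCm38). Its level was 66.9, 70.8 and 51.9 CPM in the WT libraries, 73.4, 71.9 and 75.2 in PN, and 89.9, 94.3 and 91.5 in PCN. Every PCN library lay above every other library, and every PN library lay above every WT library, with WT replicate 3 the lowest. Rela was higher in PCN than in WT by 0.54 ± 0.10 on the log2 scale (edgeR quasi-likelihood test, adjusted p = 8.4e-04) and higher than in PN by 0.32 ± 0.05 (adjusted p = 2.7e-05). Rela is not in the authors' table for PN against WT. A fit over all 9 libraries gave a log2 difference of 0.22 for that pair (95% interval 0.02 to 0.41), which was 0.09 without WT replicate 3.

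Relb encodes the partner that works with processed Nfkb2 (chr7:19606217-19629438, minus strand). It was measured at 15.6, 13.9 and 11.5 CPM in WT, 14.1, 13.8 and 10.8 in PN, and 22.7, 22.3 and 22.6 in PCN. WT and PN overlapped, while the PCN libraries lay close together above both. Relb rose by 0.72 ± 0.13 against WT (adjusted p = 4.2e-04) and by 0.81 ± 0.10 against PN (adjusted p = 3.7e-07), on the log2 scale. Its log2 difference between PN and WT was -0.09 (95% interval -0.37 to 0.20).

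Nfkb2 encodes p100, the precursor of p52 in the second route (chr19:46304737-46312090, plus strand). Its levels were 45.0, 47.8 and 32.0 CPM in WT, 46.9, 52.2 and 44.4 in PN, and 64.1, 62.0 and 64.9 in PCN. WT and PN overlapped and PCN lay above both. Nfkb2 rose by 0.62 ± 0.12 against WT (adjusted p = 0.0016) and by 0.41 ± 0.07 against PN (adjusted p = 1.1e-05), on the log2 scale. Between PN and WT its log2 difference was 0.20 (95% interval -0.05 to 0.45), and 0.04 without WT replicate 3. Psd and AC114539.1 overlap Nfkb2 on the other strand, and the sources used here do not say whether the counting used strand, so reads of these genes could be mixed. The same holds for Icam1 with Gm47079 and for Tnfaip2 with Gm40578.

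Nfkb1 encodes p105, the precursor of p50 (chr3:135584655-135691547, minus strand; Gm43430 overlaps it on the same strand). It stood at 114, 127 and 141 CPM in WT, 121, 116 and 125 in PN, and 152, 153 and 146 in PCN. The PCN libraries were the highest, but WT replicate 3 came close to them. The rise against PN was 0.32 ± 0.05 on the log2 scale (adjusted p = 7.8e-06). Against WT it was 0.24 ± 0.08 (adjusted p = 0.033), the weakest of the 9 calls in that comparison. With replicate number as a block that adjusted p was 0.066. The call was also lost without PCN replicate 1 (adjusted p = 0.12), 2 (0.12) or 3 (0.066) and without WT replicate 1 (0.14) or 2 (0.093), and over all 14 alternatives adjusted p ran from 1.2e-04 to 0.14. Between PN and WT the log2 difference of Nfkb1 was -0.08 (95% interval -0.23 to 0.08).

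Nfkbia encodes IkB-alpha, the inhibitor that NF-kB itself induces and that restrains Rela dimers (chr12:55489410-55492647, minus strand). It was measured at 83.8, 76.6 and 73.1 CPM in WT, 125, 115 and 118 in PN, and 114, 124 and 126 in PCN. PN and PCN overlapped, and every library of both lay above every WT library. Nfkbia was the only one of the 10 genes that was called higher in PN: by 0.63 ± 0.08 on the log2 scale against WT (adjusted p = 2.3e-05), with 0.64 ± 0.08 for PCN against WT (adjusted p = 1.9e-05). The log2 difference between PCN and PN was 0.02 in the 9-library fit (95% interval -0.12 to 0.17), and the gene is not in the authors' table for that pair.

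Most fitted genes around Nfkbia were lower in PCN. Only genes that the authors listed for a pair were fitted, so neighbours they did not call are not seen and mainly the direction can vary. Of all calls, 48.4% were higher in PN against WT, 47.9% in PCN against WT and 51.6% in PCN against PN. In PCN against WT, 278 genes on chromosome 12 before 95 Mb were fitted: 273 were lower and 3 were higher, namely Nfkbia, Sostdc1 (log2 fold change 2.83) and Papln (0.53), with a median log2 fold change of -1.04. All 34 fitted genes within 5 Mb of Nfkbia were lower (median -0.997). In PCN against PN, 263 of 269 genes of that stretch were lower and 5 were higher (median -0.92), and 36 of 36 genes within 5 Mb of Nfkbia were lower. In PN against WT the stretch was mixed, with 57 of 153 genes higher, and 9 of 12 genes near Nfkbia were higher. The stretch was described after its values were seen, and its part in the level of Nfkbia was not tested. Tnfaip2 lies on the same chromosome beyond 95 Mb, where 44 of 63 genes were higher and 19 lower in PCN against WT.

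**Figure D2:**
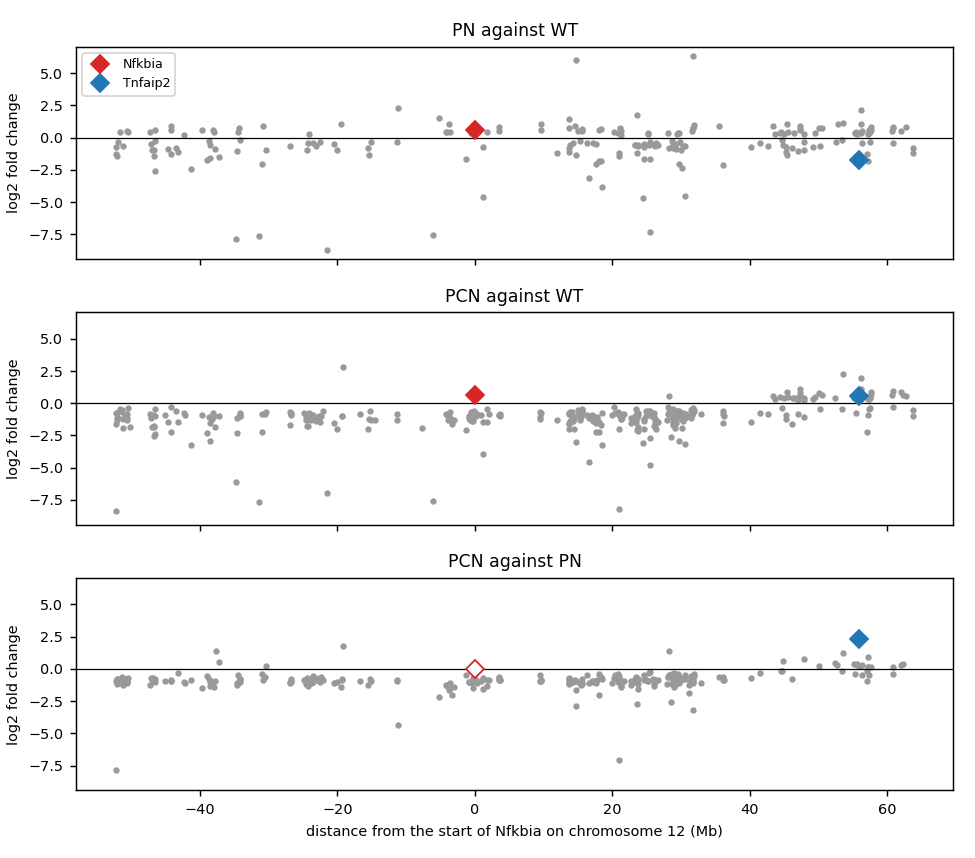
log2 fold change (vertical axis) of each fitted gene of chromosome 12 against its distance from the start of Nfkbia in Mb, 1 panel per comparison; grey points are genes, diamonds are Nfkbia and Tnfaip2, and an open diamond is a value from the 9-library fit. In both PCN panels Nfkbia stands above its fitted neighbours, nearly all of which are below 0. Grey points are only genes that the authors listed for that pair.

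Nfkbie encodes IkB-epsilon, another inhibitor of Rel dimers (chr17:45555703-45563169, plus strand). It is only in the table of PCN against PN, so its WT level is not analysed here. Counts were low: 24, 28 and 39 in PN and 73, 76 and 60 in PCN, or 1.42, 1.65 and 2.06 CPM against 3.61, 4.36 and 3.22 CPM. The groups did not overlap. Nfkbie rose by 1.11 ± 0.24 on the log2 scale (adjusted p = 5.6e-04), with the widest standard error of the 9 calls in that comparison.

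Tnfaip3 encodes A20, the ubiquitin-editing enzyme that shuts NF-kB signalling down (chr10:19000910-19015657, minus strand). Its levels were 19.0, 16.6 and 18.2 CPM in WT, 17.0, 14.8 and 14.2 in PN, and 33.2, 39.9 and 32.1 in PCN. WT and PN overlapped and PCN lay well above both. Tnfaip3 rose by 0.97 ± 0.12 on the log2 scale against WT (adjusted p = 1.3e-05) and by 1.19 ± 0.10 against PN (adjusted p = 6.3e-11). All 14 other genes fitted within 5 Mb of Tnfaip3 were also higher in PCN than in PN, with a median log2 fold change of 0.65. Of all calls in that comparison 51.6% were higher. Against WT 5 of 11 were higher and 6 lower, with 47.9% of all calls higher. Only genes that the authors listed for a pair were fitted, so neighbours they did not call are not seen. The part of these neighbours in the level of Tnfaip3 was not tested.

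Birc3 encodes cIAP2, a ubiquitin ligase at TNF receptors that blocks cell death (chr9:7848699-7873186, minus strand). It stood at 2.81, 2.65 and 2.19 CPM in WT, 2.85, 3.24 and 2.01 in PN, and 8.27, 10.04 and 7.03 in PCN. Counts were low in WT (42, 39 and 33) and PN (48, 55 and 38), and stood at 167, 175 and 131 in PCN. WT and PN overlapped (log2 difference 0.08, 95% interval -0.45 to 0.60), and every PCN library lay above both. The log2 rise was 1.73 ± 0.21 against WT (adjusted p = 1.9e-05) and 1.65 ± 0.19 against PN (adjusted p = 7.2e-08), which made Birc3 the member with the largest rise against WT.

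Icam1 encodes an adhesion molecule that leukocyte integrins bind (chr9:21015985-21028817, plus strand). Its levels were 28.3, 23.1 and 27.9 CPM in WT, 20.5, 20.8 and 22.2 in PN, and 55.4, 54.1 and 57.0 in PCN. Every PN library lay below every WT library and every PCN library above. The rise was 1.08 ± 0.10 against WT (adjusted p = 7.9e-07) and 1.39 ± 0.07 against PN (adjusted p = 2.3e-15), on the log2 scale. Icam1 is not in the authors' table for PN against WT, where the 9-library fit gave a log2 difference of -0.32 (95% interval -0.51 to -0.12).

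Tnfaip2 encodes a TNF-inducible protein linked to membrane protrusions (chr12:111442469-111455018, plus strand). It stood at 251, 256 and 288 CPM in WT, 76.6, 85.0 and 77.9 in PN, and 377, 393 and 406 in PCN. The 3 groups did not overlap, with PN lowest and PCN highest. Tnfaip2 was the only one of the 10 genes that the authors listed in all 3 comparisons. It fell by 1.72 ± 0.08 on the log2 scale in PN against WT (adjusted p = 2.1e-09), rose by 0.57 ± 0.08 in PCN against WT (adjusted p = 4.2e-05) and rose by 2.29 ± 0.05 in PCN against PN (adjusted p = 1.1e-23).

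**Figure D3:**
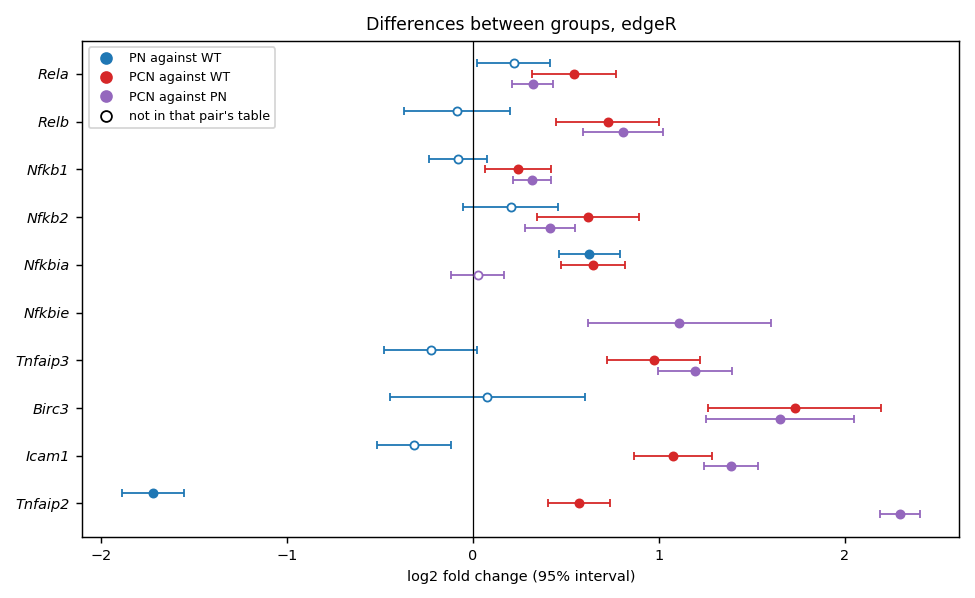
log2 fold change (horizontal axis) with its 95% interval for each gene in the 3 comparisons, from edgeR; filled points come from the fit of that pair's table and open points from the 9-library fit, which has no call. The PCN comparisons lie to the right of 0 for every filled point, and the PN comparison lies to the left for Tnfaip2 at -1.72.

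Compared per length, in FPKM, the order of the genes was as follows. In WT, Tnfaip2 (53.1 FPKM) and Nfkbia (48.4) led and overlapped, followed by Rela (23.3), Nfkb2 (12.6) and Nfkb1 (10.6), of which the last pair overlapped, then Icam1 (6.06), Relb (3.52), Tnfaip3 (2.48) and Birc3 (0.509). In PN, Nfkbia led at 74.1 FPKM, and Tnfaip2 (16.0) fell behind Rela (27.1) to overlap with Nfkb2 (14.5). In PCN, Tnfaip2 (78.6) and Nfkbia (75.4) again led and overlapped. Icam1 (12.7) then overlapped with Nfkb1 (12.5), which it had lain below in the other groups. Nfkbie (1.23) was the lowest in PCN, where it overlapped with Birc3 (1.69).

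**Figure D4:**
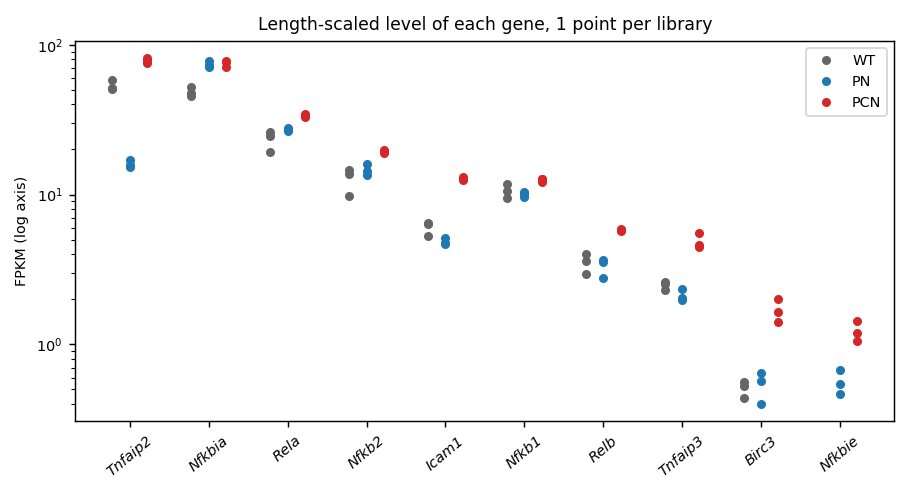
FPKM of each gene (vertical log axis) in every library, ordered by the PCN mean, with 1 point per library. Tnfaip2 spans the widest range between groups, from 16.0 in PN to 78.6 in PCN as group means.

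The genes whose level across the 9 libraries was most like that of Tnfaip2 were Mtmr9 (Pearson r = 0.993 of log2(CPM + 0.5)), Rps6ka1 (0.991) and Naa30 (0.990). For Icam1 they were Glul (0.988), Dach1 (0.986) and Ifitm3 (0.986), and for Birc3 Acpp (0.983), Pcsk1 (0.979) and Tcaf2 (0.975). These are descriptions over 9 libraries in 3 groups, which share the group means.

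The rest of the pathway was described with 6 lists of 147 genes, of which 85 have values. The counts below are over list genes that are in the authors' table of that pair and were fitted, so nearly all had to be called and only the split between higher and lower can vary. In PCN against PN, 41 of the 51 fitted genes were higher and 10 lower, while of all 3507 calls in that comparison 1809 were higher (51.6%). In PCN against WT 37 of 64 were higher and 26 lower, with 47.9% of all 6316 calls higher. Between PN and WT, 19 of 50 were higher and 31 lower in PN, with 48.4% of all 6248 calls higher. Among the other subunits and inhibitors (4 of 7 genes with values), Bcl3, an IkB-like coactivator, fell by 1.66 ± 0.11 on the log2 scale in PN against WT (adjusted p = 6.5e-08) and was higher in PCN than in PN by 1.24 ± 0.07 (adjusted p = 4.0e-14), yet still below WT (log2 fold change -0.42). Nfkbiz, another IkB-like coactivator, was higher in PCN than in WT (0.67 ± 0.11) and than in PN (0.65 ± 0.07). The atypical inhibitor Nfkbid was higher in PCN than in WT (1.16 ± 0.29), and Nfkbib was higher in PN (0.50 ± 0.12) and PCN (0.56 ± 0.12) than in WT.

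Among kinases (7 of 12 with values), 4 of 5 fitted genes were higher in PCN than in PN and 1 lower, where 51.6% of all calls were higher. Map3k8, a kinase that signals from Toll-like receptors, was higher in PCN than in PN by 1.07 ± 0.22. It was lower than in WT both in PN (-1.91 ± 0.22) and in PCN (-0.84). Ikbke rose by 0.69 ± 0.08 against PN and by 0.75 ± 0.10 against WT. In PN against WT 2 of 5 were higher and 3 lower (48.4% of all calls higher), and in PCN against WT 2 of 4 were higher and 2 lower (47.9%). The rise of Map3k7 in PN against WT (0.25 ± 0.08, adjusted p = 0.031) was lost without any 1 of PN replicates 1, 2 or 3 or WT replicates 1 or 2, with adjusted p up to 0.13. Map3k7, also known as TAK1, was lower in PCN than in PN (log2 fold change -0.24 ± 0.05). Tbk1 was higher than in WT in PN (0.33 ± 0.09) and in PCN (0.36 ± 0.09), and Tab1, a partner of Map3k7, was lower in both (-0.42 ± 0.10 and -0.51 ± 0.09).

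Adaptors and ubiquitin regulators (21 of 36 with values) gave 7 of 9 higher and 2 lower in PCN against PN (51.6% of all calls higher), 7 of 14 higher and 7 lower in PCN against WT (47.9%), and 4 of 10 higher and 6 lower in PN against WT (48.4%). Tnip3, a partner of A20, rose by 2.39 ± 0.42 against PN (0.304 CPM in PN and 1.61 in PCN). Without PN replicate 2 the log2 fold change was 3.01. Traf5, an adaptor of TNF receptors, was higher in PCN than in PN by 0.72 ± 0.14 and lower than in WT (log2 fold change -0.85 ± 0.13). Traf6 was lower in PCN than in PN (-0.35), as was Sqstm1 (-0.23). In PCN against WT, Tnip3 rose by 2.82 ± 0.46 and Traf3, an adaptor that restrains the second route, rose by 0.58 ± 0.08. Irak4, a kinase of Toll-like receptor signalling, fell by 0.63 ± 0.10 in PCN against WT. In PN the log2 fold change of Irak4 against WT was -0.96 ± 0.10. In PN against WT, Traf2 rose by 0.44 ± 0.10 and Card10 by 0.39 ± 0.10, while Card14 fell by 1.72 ± 0.42. Traf5 fell by 1.57 ± 0.14 there. Traf2 (0.52 ± 0.10) and Card10 (0.38 ± 0.10) were also higher in PCN than in WT, and Traf3 in PN (0.30 ± 0.07).

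Among receptors (19 of 32 with values), 5 of 8 were higher in PCN than in PN and 3 lower (51.6% of all calls higher), 7 of 14 were higher and 6 lower than in WT (47.9%), and 4 of 12 were higher and 8 lower in PN against WT (48.4%). Nod2, a sensor of bacterial cell wall, was highest in PCN at 40.3 ± 1.6 CPM, with 12.9 ± 0.80 in PN and 6.62 ± 0.47 in WT (log2 fold change 0.98 in PN against WT, and 1.64 ± 0.09 in PCN against PN). Tlr5, the flagellin receptor, fell by 4.25 ± 0.26 in PN against WT and fell by 3.68 ± 0.30 in PCN against WT. Fas, a death receptor, was higher in PCN than in PN by 2.22 ± 0.49, and by 3.00 without PN replicate 2. Its counts were low, with 90 over the PCN libraries, 18 over PN and 12 over WT. Tnfrsf11b had 42 counts in PCN against 1 in WT, a ratio of 33.4 (exact 95% counting interval 5.68 to 1351), and without WT replicate 3, which held that count, it was at least 7.38-fold higher over a floor of 3 counts for the group. Nod2 was higher in PCN than in WT by 2.61 ± 0.12. Cd14, a co-receptor for bacterial lipopolysaccharide, was lower than in WT in PN (log2 fold change -2.25 ± 0.28) and in PCN (-1.38 ± 0.26). Tnfrsf19 was higher in PN than in WT by 1.11 ± 0.10 and lower in PCN than in PN (-0.66 ± 0.07), and Tnfrsf12a, the TWEAK receptor, was also lower in PCN than in PN (-0.58 ± 0.08).

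Ligands (6 of 20 with values) moved in both directions. In PN against WT, where 48.4% of all calls were higher, 4 of 4 fell, among them Il33, an alarmin of barrier epithelium, with a log2 fold change of -5.27 ± 0.12 (519 CPM in WT and 13.3 in PN), and Il1a with -3.94 ± 0.38. In PCN against WT 1 of 5 was higher and 4 lower (47.9% of all calls higher), and in PCN against PN 2 of 4 were higher and 2 lower (51.6%). Tnf, the cytokine that activates NF-kB and that NF-kB induces, had 247 counts over the PCN libraries, 10 over PN and 5 over WT, or means of 4.40, 0.193 and 0.113 CPM. Tnf rose by 4.48 ± 0.38 on the log2 scale in PCN against PN (adjusted p = 8.7e-11) and by 5.21 ± 0.53 against WT, where without WT replicate 2 the ratio of 247 to 1 counts was 132 (exact 95% counting interval 23.5 to 5236). Il1a rose by 1.57 ± 0.40 against PN, while Il33 was lower (log2 fold change -1.23 ± 0.14). In PCN against WT the log2 fold change was -6.51 ± 0.12 for Il33 and -2.37 ± 0.30 for Il1a. Il1rn, the antagonist of the interleukin-1 receptor, fell by 0.77 ± 0.08 in PN against WT and by 0.25 ± 0.07 in PCN against PN. Tnfsf9 fell by 1.29 ± 0.12 in PN against WT and was also lower in PCN than in WT (log2 fold change -1.51 ± 0.13).

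Response genes outside the 10 (28 of 40 with values) gave 21 of 23 higher and 2 lower in PCN against PN (median log2 fold change 0.98, against 0.16 over all fitted genes, and 51.6% of all calls higher). They gave 17 of 23 higher and 6 lower in PCN against WT (47.9% of all calls higher), and 8 of 17 higher and 9 lower in PN against WT (48.4%). C3, the central complement component, was higher in PCN than in PN by 3.66 ± 0.12 on the log2 scale (3.16 ± 0.60 CPM in PN and 40.2 ± 2.9 in PCN). Csf3, the granulocyte growth factor, was higher by 3.18 ± 0.30, and by 3.94 without PN replicate 3. It had no WT counts, which makes it at least 82.5-fold higher in PCN than in WT over a floor of 3 counts for the group. The 2 lower genes were Ptgs2 (-0.92) and Ccnd1 (-0.33), a cyclooxygenase and a cyclin. Cxcl1, a neutrophil chemokine, was higher in PN than in WT by 3.24 ± 0.28, and by 3.88 without WT replicate 3. In PCN it was higher than in WT by 4.21 ± 0.25. Lcn2 had 240 counts in PCN against 3 in WT, a ratio of 63.7 (exact 95% counting interval 21.5 to 310.9). Without WT replicate 3 the WT count of Lcn2 was 0, and it was at least 42.2-fold higher over that floor. Cxcl3, another neutrophil chemokine, rose by 3.18 ± 0.56 in PN against WT, and without WT replicate 3 the ratio of 109 to 3 counts was 20.4 (exact 95% counting interval 6.81 to 100.6). Pdlim2 fell by 3.77 ± 0.16 in PN against WT and was also lower in PCN than in WT (log2 fold change -3.20 ± 0.15). It was counted in this list but is a regulator of NF-kB, so its fall is not read as a lost response. Gadd45b, a stress response gene, fell by 1.83 ± 0.14 in PN against WT and was also lower in PCN than in WT (-0.70 ± 0.12). Bcl2l1, which encodes the survival protein Bcl-xL, fell by 0.96 ± 0.19 in PCN against WT. In PN the log2 fold change of Bcl2l1 against WT was -1.08 ± 0.18.

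**Figure D5:**
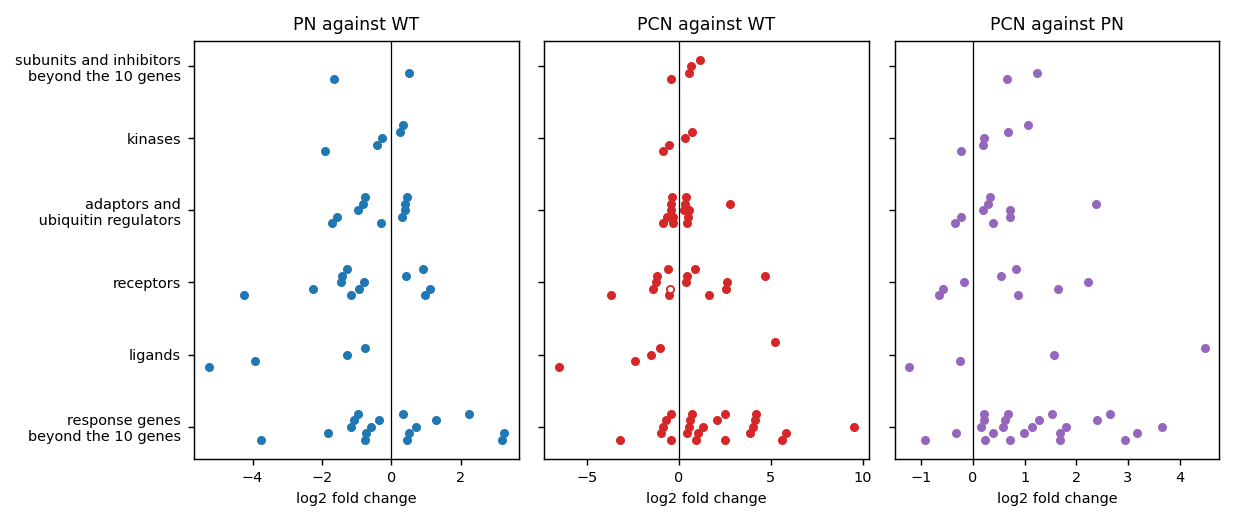
log2 fold change (horizontal axis) of the fitted genes of the 6 pathway lists in the 3 comparisons; each point is 1 gene, filled where the adjusted p was under 0.05. In PCN against PN 41 of 51 points lie to the right of 0, and the response genes give 21 of 23, where 51.6% of all calls were higher.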

How the data were processed

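Total RNA of 9 organoid libraries was sequenced. CASAVA, DESeq and the build GRCm38 (mm10) are named, without versions, per the submitters' processing notes. Which aligner, counter and annotation were used is not given in the sources used here. Each pair of groups has a deposited table that holds only genes with the authors' adjusted p under 0.05. The tables give raw counts per library, per the file headers. In the deposited normalized signal, each count is divided by 1 size factor per library and pair. The FPKM values are the authors', per the file headers, and their denominators are scaled library sizes, not raw totals. The log2 fold changes and p-values in the tables are the authors', per the file headers.

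Counts of each pair were fitted in R 4.3.3 by the quasi-likelihood test of edgeR 4.0.16 (filterByExpr, the authors' size factors as offsets), with Benjamini-Hochberg adjustment over the number of genes the authors adjusted over (17165, 17300 and 14758) and a threshold of 0.05. The planned wording multiplied those factors by library totals, and this was dropped because the recovered denominators are already scaled. Genes missing from a pair's table but counted in both groups through other tables got a log2 difference and interval from a fit of all 9 libraries and no call. The alternatives were other scalings, DESeq2 1.42.0, no filter, another adjustment, a replicate block, all 9 libraries in 1 fit and each library left out. The code was tested on simulated data, which left out genes with low counts and did not copy the authors' selection of called genes. That test therefore covers neither. CPM intervals and floors cover counting error only, since PCR copies are not independent molecules. No column of another series was present (0 columns).

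Replicate numbers are shared by the groups. Deviations of same-numbered libraries correlated at 0.25, 0.14 and 0.24 for PN against WT, where every value passed 0.1, so the numbers were taken to pair those libraries. The estimates, SE and p-values given above for PN against WT nevertheless come from fits without this pairing. Replicate number as a block was run as an alternative, and there the calls of Nfkbia and Tnfaip2 were kept. The correlations were -0.19, -0.14 and -0.33 for PCN against WT and -0.11, -0.11 and -0.15 for PCN against PN. For these pairs of groups the numbers were not taken to pair the libraries.

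The 10 genes, the 6 pathway lists and the marker lists were chosen with earlier results of these data known. All 10 genes are named. Of each list, every gene that passed was named where at most 4 passed, otherwise the 2 largest rises and the 2 largest falls. For the 3 genes with the largest change, the 3 most correlated genes were named. Promoter windows come from RefSeq (GRCm38.p6).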

Additional observations from a re-analysis of the deposited data

Results flagged for a closer look

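For Icam1 and Tnfaip2, every PN library lay below all WT libraries and every PCN library lay above them, so the groups moved in opposite directions from WT. In PCN against PN the log2 fold change was 1.39 for Icam1 and 2.29 for Tnfaip2, with adjusted p = 2.3e-15 and 1.1e-23 (edgeR). Both genes were flagged by the order of these same libraries, so PCN above PN was fixed by the choice. These p-values are therefore no separate support for the pattern. For Icam1 the PN difference from WT has no call of its own.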

How the results depend on the processing

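Among the calls of the 10 genes, that of Nfkb1 in PCN against WT was lost under 6 of 14 alternatives: with the replicate block (log2 fold change 0.25, adjusted p = 0.066) and with each of 5 single libraries left out, where the log2 fold change ran from 0.17 to 0.26 and adjusted p from 0.066 to 0.14. Every other call kept its direction and its threshold under each alternative run. The untested differences from the 9-library fit moved by less than the spread between libraries, but those of Relb, Nfkb1 and Birc3 in PN against WT and of Nfkbia in PCN against PN changed sign with some libraries left out. The genes called numbered 2 in PN against WT under every alternative run, 8 or 9 in PCN against WT and 8 or 9 in PCN against PN, where the fit of all 9 libraries leaves out Nfkbie. With the replicate block they were 2, 8 and 9, the block changed no other call among the 10 genes, and list calls with it were 49, 63 and 51. Pathway list calls ran from 45 to 53, 54 to 66 and 39 to 51. DESeq2 size factors computed on the listed genes moved the median log2 fold change of all fitted genes from -0.26 to -0.13 in PN against WT and from -0.28 to -0.12 in PCN against WT, and the 9 genes stayed higher in PCN. Without WT replicate 3 the biological coefficient of variation fell from 0.0870 to 0.0572 in PN against WT and from 0.0925 to 0.0644 in PCN against WT. TMM over all genes was not run, because the tables hold only called genes. Low counts limit Nfkbie, Birc3 in WT and PN, Tnf in WT and PN, and Tnip3. They also limit other list genes, among them Fas, Lcn2, Csf3, Cxcl3, Tnfrsf11b, Card14, Il1a and Tlr5.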
